A study of Mus musculus with 16 samples.

Results

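The CXC chemokines Cxcl9, Cxcl10 and Cxcl11, the homeostatic ligands Cxcl12 and Cxcl14, and the scavenger receptor Ackr3 were followed across 4 conditions of primary murine gingival fibroblasts (mGF), the stromal cells that migrate from explanted gum tissue. The members were chosen by gene symbol, as 6 of the 56941 genes in the deposited count table, and 5 of them were among the 16306 genes kept for testing, since Cxcl14 was too low. The question was how a metabolic stress and an inflammatory stress, alone and together, changed the ligands that draw T cells and the ligand and receptor that govern resting leukocyte traffic.

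Bulk RNA was sequenced in 16 libraries, 4 per condition, after 24 h. The conditions were BSA (the albumin vehicle at 200 µM), IL-1β (recombinant mouse protein at 1 ng/mL), palmitate (a saturated fatty acid at 200 µM, carried on BSA) and palmitate + IL-1β. The labels name the second group by IL-1β alone, while the paper describes IL-1β given with either vehicle or palmitate, so the IL-1β group is taken to hold the vehicle too. All cells were wild type, from C57Bl6 mice aged 3 to 6 months, and were used between passages 2 and 8 in medium with 20% fetal bovine serum. The labels do not say that the libraries came from separate cultures or animals, so the p-values measure only the spread between these libraries, which may be technical. The labels also leave out the number of explants.

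CXCL9, CXCL10 and CXCL11 share the receptor CXCR3 and recruit activated T cells and natural killer cells. Their genes are classically switched on by interferons through STAT and IRF factors, and Cxcl10 also answers to NF-kB, which IL-1β activates. CXCL12 is made by resting stroma and holds cells through CXCR4, CXCL14 is a constitutive chemokine of epithelia and other healthy tissues, and ACKR3 binds CXCL11 and CXCL12 without G protein signalling and removes them from the surroundings. C57BL/6 mice are known to carry a frameshift in Cxcl11, so its transcript level does not stand for a working chemokine.

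Libraries held 21234789 to 92752515 counts on genes. Palmitate replicate 10 was the deepest, and no other library exceeded 35329711. Levels are given as CPM, the share of a library's counts scaled to a common total, on library sizes scaled by the trimmed mean of M-values, and 3 counts in a library, used as the limit of detection, equalled 0.0331 to 0.146 CPM. The 9 fibroblast markers, Col1a1 among them, summed to between 28473 and 33713 CPM in every library. The 8 leukocyte markers summed to 2.58 to 4.35 CPM in BSA, 3.31 to 3.64 in IL-1β, 2.57 to 3.53 in palmitate and 3.29 to 3.90 in palmitate + IL-1β. Adgre1 and Cd3e were at or under 3 counts in every library. Csf1r, Cd68 and Lyz2 exceeded 3 counts in every library, at no less than 1.10, 0.678 and 0.437 CPM. Palmitate raised 1 and lowered 4 of the 9 fibroblast markers, and lowered 1 of the 3 leukocyte markers tested. Of all genes tested, 19.8% rose and 17.5% fell with palmitate. The part of either set of markers in the results below was not tested. Across all libraries, endothelial markers reached 1.42 to 2.25 CPM, epithelial markers 0.164 to 0.728, mural markers 77.3 to 111.6 and Schwann cell markers 1.94 to 3.36. In bulk RNA, more cells making a transcript and more transcript per cell cannot be told apart.

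The genes for the 3 interferon-induced ligands lie side by side on mouse chromosome 5 (GRCm39), on the minus strand, within 44139 bases from the end of Cxcl9 to the start of Cxcl11. Cxcl9 spans chr5:92469206-92475945, Cxcl10 chr5:92494497-92496748 and Cxcl11 chr5:92507403-92513344. Cxcl10 and Cxcl11 sit inside Art3, which is read from the opposite strand. Cxcl12 lies at chr6:117144945-117158328 on the plus strand, Cxcl14 at chr13:56436352-56444603 on the minus strand and Ackr3 at chr1:90131689-90144473 on the plus strand.

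The 250 bases upstream of the annotated start are shown for Cxcl9 and Cxcl10, the interferon-induced ligands that gained most in CPM, and for Cxcl12, which rose with palmitate but did not pass the test with IL-1β. They were taken from RefSeq (GRCm38.p6), read 5′ to 3′ along the gene, from chr5:92328080-92328329 (minus strand), chr5:92348890-92349139 (minus strand) and chr6:117168285-117168534 (plus strand) in that build. Capitals mark matches to a pair of interferon regulatory factor half-sites (GAAANNGAA) or to an NF-kB core (GGANNTTCC).
Cxcl9: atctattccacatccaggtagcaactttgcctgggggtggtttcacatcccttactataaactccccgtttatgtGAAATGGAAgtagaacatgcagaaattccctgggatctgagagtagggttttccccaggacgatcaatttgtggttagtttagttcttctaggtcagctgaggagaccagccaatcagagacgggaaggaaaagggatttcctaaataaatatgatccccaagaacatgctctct
Cxcl10: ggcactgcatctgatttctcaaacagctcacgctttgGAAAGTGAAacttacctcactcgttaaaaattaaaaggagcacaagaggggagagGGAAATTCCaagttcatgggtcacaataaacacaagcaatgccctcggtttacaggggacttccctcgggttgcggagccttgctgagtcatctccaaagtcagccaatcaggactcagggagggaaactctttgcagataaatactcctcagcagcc
Cxcl12: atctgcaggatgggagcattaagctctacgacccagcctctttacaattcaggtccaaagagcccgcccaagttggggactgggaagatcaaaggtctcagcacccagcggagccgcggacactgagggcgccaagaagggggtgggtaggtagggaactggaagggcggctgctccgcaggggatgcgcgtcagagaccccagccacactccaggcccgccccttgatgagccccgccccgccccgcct
Searched on either strand, the interferon regulatory factor pair was found 175 to 167 bases before the start of Cxcl9 and 213 to 205 bases before that of Cxcl10. The NF-kB core was found 158 to 150 bases before the start of Cxcl10. Of 32851 promoter windows of 250 bases, 7.13% held the first motif, 3.59% the second and 7.02% a STAT palindrome (TTCNNNGAA). No match to these letters was found in the windows of Cxcl12 and Ackr3. The window of Cxcl14 held the STAT palindrome 191 to 183 and the interferon regulatory factor pair 172 to 164 bases before its start. The promoter table had entries for 5 of the 6 members, all but Cxcl11. A match describes the letters only. Other forms of these sites were not searched, so a window may hold sites that are not marked.

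Palmitate and IL-1β each raised all 3 interferon-induced ligands, palmitate raised Cxcl9 and Cxcl10 above their levels in IL-1β, and adding IL-1β to palmitate gave no further change that passed the test. Cxcl9 was nearly silent in BSA, with 1, 1, 0 and 0 counts. It was at 0.614, 0.351, 0.127 and 0.373 CPM in IL-1β, at 9.23, 9.50, 8.30 and 9.78 CPM in palmitate, and at 8.75, 8.97, 8.84 and 12.9 CPM with both agents. Every IL-1β library lay above every BSA library and below every library with palmitate, and the conditions with palmitate overlapped. The means were 0.366 ± 0.199 CPM in IL-1β, 9.20 ± 0.642 in palmitate and 9.87 ± 2.04 with both agents (SD, n = 4 each).

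Because BSA held only 2 counts of Cxcl9 in all, its folds are given as ratios of summed counts with 95% exact counting intervals, which cover counting error only. Cxcl9 was 20.9-fold higher with IL-1β (5.39 to 179.1), 556.4-fold higher with palmitate (153.7 to 4598) and 582.5-fold higher with palmitate + IL-1β (160.9 to 4816). All 3 comparisons passed the edgeR quasi-likelihood test with Benjamini-Hochberg adjustment over all genes, with adjusted p of 2.3e-04, 2.3e-18 and 1.0e-18. Palmitate exceeded IL-1β by 4.70 ± 0.22 on the log2 scale (SE, edgeR adjusted p = 2.7e-16), and adding palmitate to IL-1β raised Cxcl9 by 4.79 ± 0.22 (adjusted p = 1.3e-16). Between palmitate + IL-1β and palmitate the log2 difference was 0.09, with a 95% interval from -0.16 to 0.35 (edgeR adjusted p = 0.737), and it was -0.06 without palmitate + IL-1β replicate 16.

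Cxcl10, the most abundant of the 3, was already measurable in BSA, at 1.39, 2.65, 1.53 and 2.20 CPM. It stood at 16.5, 15.5, 17.2 and 13.0 CPM in IL-1β, at 57.5, 57.6, 56.1 and 47.3 CPM in palmitate, and at 55.4, 63.7, 55.9 and 94.5 CPM with both agents. The conditions formed 3 separate levels, BSA lowest, IL-1β between, and the palmitate conditions together at the top. IL-1β raised Cxcl10 by 3.00 ± 0.27 on the log2 scale (SE), or 8.02-fold, and palmitate by 4.81 ± 0.24, or 28.1-fold, with edgeR adjusted p of 4.7e-06 and 2.1e-09. Palmitate + IL-1β stood 5.11 ± 0.24 above BSA (edgeR adjusted p = 6.7e-10) and 2.11 ± 0.18 above IL-1β (adjusted p = 7.3e-07).

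Palmitate exceeded IL-1β in Cxcl10 by 1.81 ± 0.18 on the log2 scale (SE, edgeR adjusted p = 4.2e-06). Adding IL-1β to palmitate moved Cxcl10 by 0.30, with a 95% interval from -0.05 to 0.65 (edgeR adjusted p = 0.316). Replicate 16 of that condition carried most of this, since the difference was 0.09 without it. The mean of palmitate + IL-1β was 67.4 ± 18.5 CPM, against 54.6 ± 4.94 in palmitate, 15.5 ± 1.80 in IL-1β and 1.94 ± 0.590 in BSA (SD, n = 4 each).

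Cxcl11 had 0 counts in all 4 BSA libraries. It was at 0.409, 0.234, 0.696 and 0.290 CPM in IL-1β, at 0.923, 0.738, 0.588 and 0.863 CPM in palmitate and at 0.850, 1.03, 0.804 and 1.58 CPM with both agents, from 6 to 67 counts per library. All treated libraries were above BSA, and IL-1β and palmitate overlapped through 1 library of each. Set against a floor of 3 counts per BSA library, Cxcl11 was at least 4.02-fold higher with IL-1β, 7.68-fold higher with palmitate and 10.5-fold higher with palmitate + IL-1β, with edgeR adjusted p of 5.7e-06, 9.7e-09 and 6.6e-10. Palmitate exceeded IL-1β by 0.86 ± 0.34 on the log2 scale (SE), which just missed the threshold (edgeR adjusted p = 0.0533) and passed it without IL-1β replicate 7 (1.29, adjusted p = 0.0112), without palmitate replicate 11 (0.96, adjusted p = 0.0485) or with only these 8 libraries fitted (0.85, adjusted p = 0.0418).

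Adding palmitate to IL-1β raised Cxcl11 by 1.32 ± 0.33 on the log2 scale (SE, edgeR adjusted p = 0.00215). Adding IL-1β to palmitate gave 0.46, with a 95% interval from -0.13 to 1.05 (edgeR adjusted p = 0.371). The longest stretch shared with a transcript of another gene at 95% identity or more was 1582 bases with the pseudogene Gm2673, which overlaps Cxcl11 on the opposite strand and had at most 1 count in any library. For Cxcl10 that stretch was 133 bases with Art3, which had 0 to 53 counts per library. The labels name a stranded kit and the count table is named for strand, but the counting setting is not given in the sources used here, so whether reads in these overlaps were assigned by strand is not known.

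**Figure D1:**
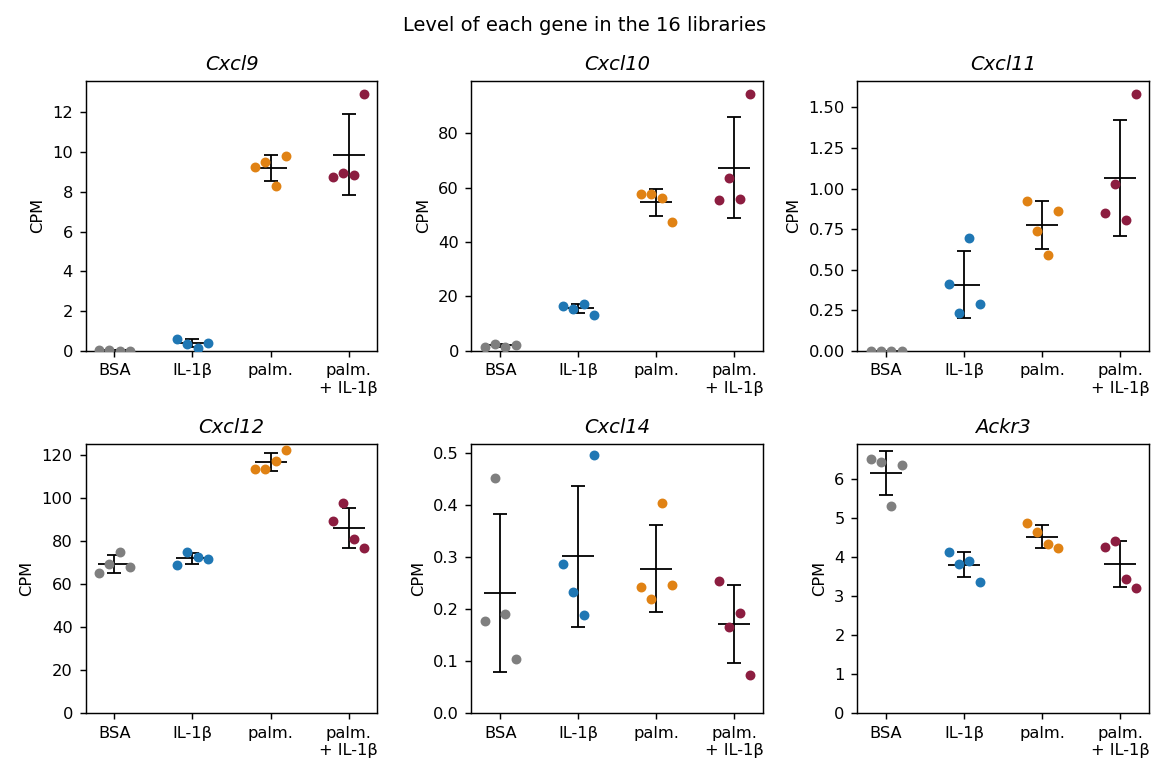
Level of each of the 6 genes in CPM (vertical axis, from 0, scaled for each gene) in the 16 libraries by condition, with palm. standing for palmitate; dots are libraries and bars are the mean and SD of 4. Cxcl9, Cxcl10 and Cxcl11 are near 0 in BSA and highest with palmitate, Cxcl12 is highest with palmitate alone (116 CPM), and Ackr3 is highest in BSA (6.15 CPM).

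The neighbours of these genes changed by smaller factors. Sdad1, which flanks Cxcl9, rose by 0.45 ± 0.05 on the log2 scale with palmitate and by 0.19 ± 0.05 with IL-1β (SE, edgeR adjusted p = 1.4e-08 and 0.0111). Art3, around Cxcl10 and Cxcl11, was at 0.334 ± 0.0231 CPM in BSA and 0.610 ± 0.120 in palmitate (SD, n = 4 each), a log2 difference of 0.84 ± 0.39 (SE) that did not pass the test (edgeR adjusted p = 0.0896). It rose by 1.10 ± 0.38 in palmitate + IL-1β (edgeR adjusted p = 0.0171).

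The balance among the ligands also differed between the agents. Per kilobase of annotated exon, Cxcl9 was at 1.79 ± 0.936% of the level of Cxcl10 in IL-1β, against 12.7 ± 1.90% with palmitate and 11.1 ± 0.841% with both agents (SD, n = 4 each). The highest IL-1β library reached 2.77% and the lowest library with palmitate 10.2%, so the agents did not overlap. Cxcl11 stood at 1.53 ± 0.637% of Cxcl10 in IL-1β, 0.855 ± 0.204% in palmitate and 0.929 ± 0.0606% with both agents, and those ranges overlapped. These ratios were described and not tested.

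Cxcl12, the homeostatic ligand, rose with palmitate, did not pass the test with IL-1β, and was lower with both agents than with palmitate alone. It was at 64.9, 69.5, 74.8 and 68.1 CPM in BSA and at 68.95, 74.8, 72.5 and 71.5 CPM in IL-1β. It reached 113.3, 113.2, 117.1 and 122.2 CPM in palmitate, but 89.0, 97.6, 81.03 and 76.7 CPM in palmitate + IL-1β. The palmitate libraries lay above all others, the libraries with both agents lay between, and BSA and IL-1β overlapped.

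Palmitate raised Cxcl12 by 0.75 ± 0.06 on the log2 scale (SE), or 1.68-fold, with an edgeR adjusted p of 4.5e-12. The change with IL-1β was 0.05, with a 95% interval from -0.06 to 0.17 (edgeR adjusted p = 0.593). Palmitate + IL-1β exceeded BSA by 0.31 ± 0.06 (edgeR adjusted p = 3.3e-05) and IL-1β by 0.26 ± 0.06 (adjusted p = 5.7e-04). It fell by 0.43 ± 0.06 from palmitate alone (edgeR adjusted p = 1.8e-06), and palmitate exceeded IL-1β by 0.69 ± 0.06 (adjusted p = 4.5e-11). The difference from palmitate alone stayed between -0.50 and -0.38 when any of the 8 libraries was left out.

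Cxcl14 was near the limit of detection, at 2 to 20 counts per library. Its means were 0.231 ± 0.152 CPM in BSA, 0.302 ± 0.136 in IL-1β, 0.278 ± 0.0845 in palmitate and 0.172 ± 0.0753 with both agents (SD, n = 4 each). All conditions overlapped. In 2-sided exact permutation tests of 4 against 4 libraries, which can reach 0.0286 at the lowest, p lay between 0.114 and 0.714 over 6 comparisons, without adjustment, and no difference was detected.

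Ackr3, the receptor that takes up CXCL11 and CXCL12, was lower in every treated condition. It was at 6.51, 6.43, 5.30 and 6.36 CPM in BSA, at 4.13, 3.83, 3.89 and 3.36 CPM in IL-1β, at 4.86, 4.65, 4.33 and 4.23 CPM in palmitate and at 4.25, 4.40, 3.44 and 3.20 CPM with both agents. No treated library reached the lowest BSA library. Ackr3 fell by 0.70 ± 0.12 on the log2 scale with IL-1β, by 0.45 ± 0.11 with palmitate and by 0.68 ± 0.11 with both agents (SE, edgeR adjusted p = 4.5e-05, 0.00159 and 7.4e-06).

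The treated conditions were not told apart in Ackr3. Palmitate was 0.25 ± 0.12 above IL-1β on the log2 scale (SE, edgeR adjusted p = 0.110), although their libraries did not overlap. Adding palmitate to IL-1β gave 0.01 (95% interval -0.24 to 0.26, edgeR adjusted p = 0.951), and adding IL-1β to palmitate gave -0.24 ± 0.12 (adjusted p = 0.221). Per kilobase, Cxcl12 stood at 11.1 ± 1.79 times the level of Ackr3 in BSA, 18.5 ± 1.87 times in IL-1β, 25.1 ± 2.45 times in palmitate and 22.0 ± 1.32 times with both agents (SD, n = 4 each). No treated library was as low as the highest BSA library, at 13.7 times.

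**Figure D2:**
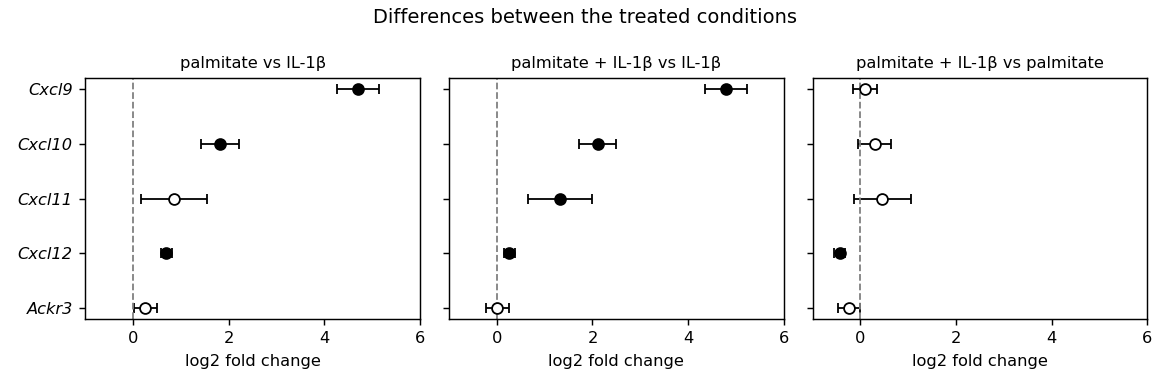
Log2 fold change (horizontal axis) of the 5 tested genes (rows) in the 3 comparisons between treated conditions; points are edgeR estimates, lines are 95% intervals, and filled points passed an adjusted p of 0.05. Of the 5 genes, Cxcl9 lies furthest from 0 both when palmitate is set against IL-1β (4.70) and when palmitate is added to IL-1β (4.79), and only Cxcl12 passed the test when IL-1β was added to palmitate (-0.43).

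Of the 5 members tested, 4 rose and 1 fell with palmitate, where 37.3% of all genes passed the test, 19.8% upward and 17.5% downward. With IL-1β, 3 rose and 1 fell, against 15.1% of all genes, 10.1% upward and 4.97% downward. With palmitate + IL-1β, 4 rose and 1 fell, against 47.3%, 24.8% upward and 22.5% downward. Adding palmitate to IL-1β raised 4 members and lowered 0, against 35% of all genes, 18.9% upward and 16.1% downward. Adding IL-1β to palmitate lowered 1 member and raised 0, against 9.81%, 5.71% upward and 4.1% downward. Palmitate exceeded IL-1β in 3 members and was lower in 0, against 31.6%, 16.5% upward and 15.2% downward. The median log2 difference of the tested members was 4.81 for palmitate, 3.00 for IL-1β and 5.11 for both agents against BSA, where the median of all genes tested lay between -0.00486 and 0.00170. The comparisons with BSA share the same 4 control libraries. Cxcl9 and Cxcl11 entered the test only through the treated conditions, so these counts are a description. For libraries that did not overlap, the share among all genes was 36% for palmitate, 17.6% for IL-1β and 41.5% for both agents against BSA, 31.1% for palmitate against IL-1β, and 31.3% and 16.7% for both agents against IL-1β and against palmitate.

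The interaction asks whether palmitate changed a gene by a different factor with IL-1β present than without it. Of all genes tested 1.99% passed, 1.83% downward and 0.159% upward. Of the 3 tested members measurable in every condition, Cxcl10 and Cxcl12 passed downward. Cxcl10 gave -2.71 ± 0.32 on the log2 scale (SE, edgeR adjusted p = 2.9e-04), the factor being 28.1 without IL-1β and 4.31 with it. Cxcl12 gave -0.49 ± 0.08 (edgeR adjusted p = 2.0e-04), the factor being 1.68 without IL-1β and 1.20 with it. Cxcl9 gave -4.01 and Cxcl11 -6.30 (edgeR adjusted p = 0.00193 and 4.6e-04), but they entered the test only through the treated conditions and both sizes depend on the prior count because BSA was at the limit of detection, so neither is read against that share. DESeq2 gave no adjusted p for Cxcl11 here. Ackr3 gave 0.46 ± 0.16, which did not pass (edgeR adjusted p = 0.217).

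On the linear scale, Cxcl12 gained less with both agents than the single gains together, while for the interferon-induced ligands the result rested on 1 library. Above BSA, Cxcl10 gained 65.4 CPM with both agents, while the gains with each agent summed to 66.3 CPM, a difference of -0.847 ± 9.62 (SE). Cxcl9 gained 9.86 CPM against a sum of 9.54, a difference of 0.321 ± 1.07, and Cxcl11 gained 1.07 CPM against 1.19, a difference of -0.120 ± 0.220. All 3 differences were smaller than their standard errors with 4 libraries per condition. Without palmitate + IL-1β replicate 16 they became -9.90 ± 3.77 CPM for Cxcl10, -0.698 ± 0.342 for Cxcl9 and -0.292 ± 0.144 for Cxcl11. That library was the highest of its condition in all 3 genes. Leaving it out therefore had to lower the differences, and no conclusion is drawn from these values. With any other library left out, all 3 differences stayed smaller than their standard errors.

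Cxcl12 gained 16.8 CPM with both agents against a sum of 49.8 CPM, a difference of -33.0 ± 5.60 (SE). Ackr3 lost 2.33 CPM against a sum of 3.98 CPM, a difference of 1.65 ± 0.464. Leaving out any of the 16 libraries kept these differences between -36.8 and -29.9 CPM for Cxcl12 and between 1.46 and 1.94 CPM for Ackr3. The linear differences were described and not tested.

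**Figure D3:**
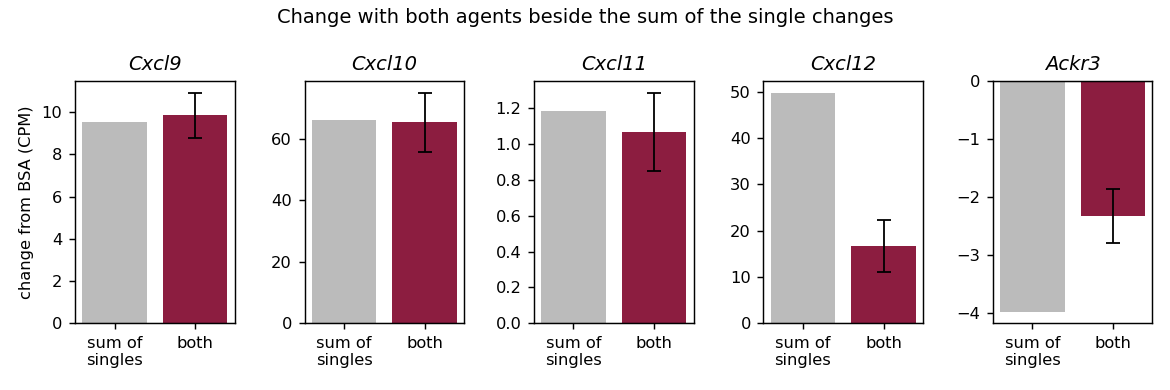
Change from BSA in CPM (vertical axis, scaled for each gene) for the 5 tested genes: grey bars are the sum of the changes with palmitate alone and IL-1β alone, dark bars the change with both, and the error bar is the SE of the difference between the bars. With all 16 libraries the bars are level within the SE for Cxcl9, Cxcl10 and Cxcl11, while Cxcl12 gained 16.8 CPM against a sum of 49.8. Without palmitate + IL-1β replicate 16 the difference for Cxcl10 is -9.90 CPM. That library was the highest of its condition in Cxcl9, Cxcl10 and Cxcl11, so leaving it out had to lower their differences.

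Compared per kilobase of exon, with all annotated exons of a gene merged, the order of the members changed with treatment. In BSA Cxcl12 led at 8.30 ± 0.492 CPM per kilobase, Cxcl10 (0.862 ± 0.262) and Ackr3 (0.759 ± 0.0702) overlapped, Cxcl14 followed at 0.0675 ± 0.0444, and Cxcl9 and Cxcl11 were at the limit of detection (SD, n = 4 each). In IL-1β Cxcl12 (8.62 ± 0.290) and Cxcl10 (6.90 ± 0.800) led without overlap, Ackr3 was at 0.469 ± 0.0402, and Cxcl9 (0.121 ± 0.0659), Cxcl11 (0.107 ± 0.0543) and Cxcl14 (0.0881 ± 0.0397) overlapped.

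In palmitate Cxcl10 overtook Cxcl12, at 24.3 ± 2.19 against 14.0 ± 0.507 CPM per kilobase, followed by Cxcl9 (3.04 ± 0.212), Ackr3 (0.557 ± 0.0356), Cxcl11 (0.205 ± 0.0391) and Cxcl14 (0.0812 ± 0.0246), and no neighbours overlapped. In palmitate + IL-1β the order was the same, with Cxcl10 at 29.9 ± 8.21, Cxcl12 at 10.3 ± 1.10 and Cxcl9 at 3.27 ± 0.675 CPM per kilobase, and there Ackr3 (0.472 ± 0.0728) and Cxcl11 (0.281 ± 0.0945) overlapped. Within a library, the ratio of Cxcl10 to Cxcl12 per kilobase was 0.104 ± 0.0319 in BSA, 0.802 ± 0.0994 in IL-1β, 1.74 ± 0.212 in palmitate and 2.96 ± 1.08 with both agents. The 4 ranges did not overlap. This order rests on the merged exon lengths, 8346 bases for Cxcl12 and 2252 for Cxcl10. In CPM the mean of Cxcl12 stayed above that of Cxcl10, at 116 against 54.6 in palmitate and 86.1 against 67.4 with both agents.

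**Figure D4:**
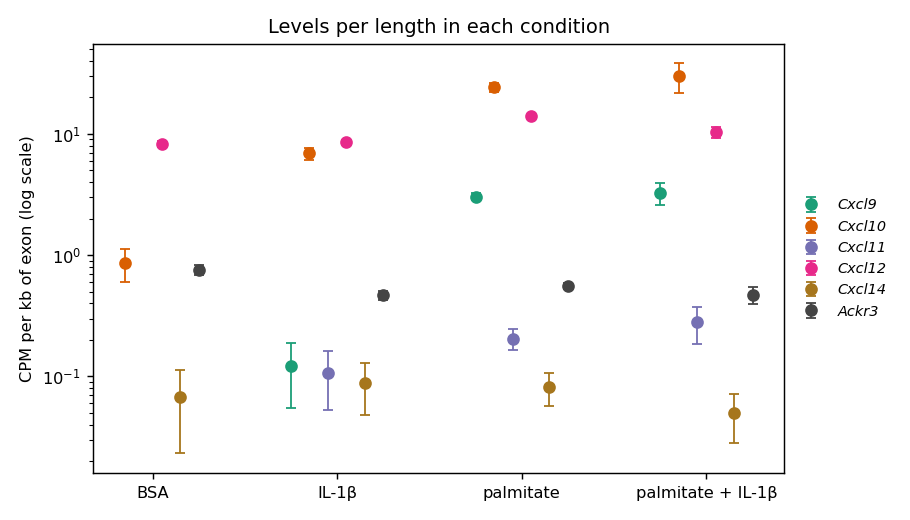
Mean level per kilobase of annotated exon (vertical axis, log scale) of the 6 genes in each condition; points are means and bars the SD of 4 libraries, and Cxcl9 and Cxcl11 are not drawn in BSA, where they were at the limit of detection. By this measure Cxcl12 is highest in BSA (8.30) and Cxcl10 in palmitate (24.3), where in CPM Cxcl12 (116) stood above Cxcl10 (54.6).

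Replicate 16 of palmitate + IL-1β was the highest of its condition in Cxcl9, Cxcl10 and Cxcl11 and the lowest in Cxcl12, Cxcl14 and Ackr3. It was also highest in 22 of 23 interferon-stimulated genes tested, whereas it was highest in 28.6% of all genes tested and in 1 of 8 NF-kB genes. The other conditions also had 1 library that was most often highest in these interferon-stimulated genes. IL-1β replicate 5 was highest in 69.6% of them, palmitate replicate 9 in 56.5% and BSA replicate 1 in 52.2%. In palmitate, replicate 12 was lowest in 73.9% of the interferon-stimulated genes, against 26.8% of all genes tested, and lowest in Cxcl10. It was highest in Cxcl9, at 9.78 CPM, and between the others in Cxcl11, at 0.863 CPM. The part of depth or RNA quality in these libraries was not tested. Replicate 16 had 27575315 counts on genes, the fewest of its condition, and 11.5% mitochondrial counts, the highest share of its condition. Both lay within the range of the libraries of the other conditions. Leaving replicate 16 out changed no call of a member, but it set the linear differences from the sum given above.

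The signalling receptors of the CXCR family had at most 36 counts in any library. Cxcr3, the receptor of the interferon-induced ligands, had 1 count in 1 BSA library and 0 in the other 15 libraries. Cxcr1 and Cxcr2 had at most 1 count in a library, and Cxcr6 had 1 to 23. Cxcr4, the signalling receptor of CXCL12, had 17 counts over the BSA libraries, 18 in IL-1β, 4 in palmitate and 3 with both agents, too few for the fit. Its exact permutation p was 0.0857 for palmitate against BSA. Cxcr5, at 3 to 36 counts, was tested and not called in any comparison.

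Of 11 CXC and atypical receptors other than Ackr3, 4 were tested, and palmitate raised 2 and lowered 0, where 19.8% of all genes rose and 17.5% fell. The 2, Ackr2 and Ccrl2, entered the test only through the conditions with palmitate, so this count is a description. Ackr2, a scavenger of inflammatory CC chemokines, went from 0.0773 ± 0.0940 CPM in BSA to 0.587 ± 0.237 in palmitate and 0.967 ± 0.170 with both agents (SD, n = 4 each), by 3.05 ± 0.52 and 3.62 ± 0.50 on the log2 scale (SE, edgeR adjusted p = 1.5e-05 and 3.2e-07). Ccrl2, a chemerin-binding receptor, rose by 3.18 ± 0.55 and 3.37 ± 0.54 in the same comparisons (edgeR adjusted p = 2.1e-05 and 5.0e-06). Over the BSA libraries Ackr2 held 9 counts in all and Ccrl2 8, near the limit of detection, so these sizes depend on the prior count. Ackr4, a scavenger of homeostatic CC chemokines, fell by 1.05 ± 0.27 with both agents (edgeR adjusted p = 0.00167), while with palmitate alone it was at -0.47 ± 0.25 (adjusted p = 0.140). Ackr1 had at most 3 counts in a library and Gpr182, which also takes up CXC ligands, at most 2. With IL-1β, 0 of the 4 passed by edgeR, 1 at an unadjusted p under 0.05 (Ccrl2), and 0 by DESeq2, which gave no adjusted p for 3 of them. By edgeR, 15.1% of all genes passed with IL-1β, so 0 of 4 is too few to read as a result about these receptors.

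Interferon transcripts were at or near 0. Ifna4, Ifne, Ifnk, Ifng, Ifnl2 and Ifnl3 had 0 counts in all 16 libraries, and Ifnb1 had 1 count in 1 palmitate library. A count of 0 allows up to 0.0331 to 0.146 CPM by library, and the time before 24 h was not sampled. Of the 5 interferon receptor chains tested, palmitate raised 4 (19.8% of all genes rose) and lowered 0, led by Ifnar2 (0.87 ± 0.09 on the log2 scale, SE) and Ifngr2 (0.72 ± 0.05), with edgeR adjusted p of 2.1e-09 and 6.8e-13. With IL-1β, 2 of the 5 rose, against 10.1% of all genes.

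Most of the genes that carry the interferon signal rose with palmitate. Of 12 JAK, STAT and IRF genes tested, 10 rose, 0 fell and 2 did not pass with palmitate, and 5 rose and 0 fell with IL-1β, where 19.8% and 10.1% of all genes rose. Irf7, a transcription factor of the antiviral response, rose by 2.75 ± 0.19 on the log2 scale with palmitate (SE, edgeR adjusted p = 1.5e-09), while with IL-1β it gave 0.54 ± 0.23 (adjusted p = 0.137).

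Of 23 interferon-stimulated genes tested, 23 rose by edgeR with palmitate, with a median log2 difference of 3.88. With IL-1β 8 rose and 0 fell, with a median of 0.74. DESeq2 called 23 with palmitate and 12 with IL-1β, and gave no adjusted p for 2 with IL-1β. Of all genes tested 19.8% rose with palmitate and 10.1% with IL-1β. Some of the 23, such as Isg15, Oas2 and Oasl1 at 0 to 7 counts per BSA library, entered the test only through palmitate conditions. The counts of this list are therefore a description. Gbp5 and Iigp1, both GTPases of cell-autonomous defence, rose by 6.73 ± 0.13 and 5.94 ± 0.38 with palmitate (SE, edgeR adjusted p = 1.7e-20 and 3.0e-08). Adding IL-1β to palmitate called 0 of the 23 by edgeR, 2 at an unadjusted p under 0.05 and 0 by DESeq2, which gave no adjusted p for 2 of them. By edgeR, 9.81% of all genes passed in this comparison, 5.71% upward, so the 0 is a description. The median log2 difference of the 23 was 0.17, against 0.00685 over all genes tested.

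The NF-kB list moved with either agent. Of 8 genes, 7 rose with palmitate and 8 with IL-1β, and adding IL-1β to palmitate raised 6, where 19.8%, 10.1% and 5.71% of all genes rose. Nfkbiz and Nfkbia, inhibitor family members that NF-kB itself induces, rose by 2.34 ± 0.06 and 2.16 ± 0.05 on the log2 scale with palmitate and by 1.37 ± 0.06 and 1.48 ± 0.05 with IL-1β (SE), with edgeR adjusted p of 5.4e-25, 2.4e-25, 6.2e-18 and 5.4e-20. All 6 of the other CXC ligands tested rose with palmitate and 5 with IL-1β. Cxcl2 and Cxcl3 entered the test only through the treated conditions, so these counts are a description. Cxcl5, a neutrophil attractant, rose by 7.61 ± 0.07 with palmitate and by 3.31 ± 0.08 with IL-1β (SE, edgeR adjusted p = 1.0e-35 and 7.3e-25). Cxcl3, with 1 count in BSA, was 80.7-fold higher with palmitate by summed counts (95% exact counting interval 14.2 to 3218).

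Genes that handle chemokines after secretion or binding changed in both directions with palmitate, where 19.8% of all genes rose and 17.5% fell. Of 5 receptor kinases and arrestins tested, palmitate raised 1, Grk2, by 0.16 ± 0.05 on the log2 scale (SE, edgeR adjusted p = 0.0173). It lowered 2, the arrestins Arrb1 by 0.50 ± 0.06 and Arrb2 by 0.33 ± 0.13 (edgeR adjusted p = 7.7e-08 and 0.0408). Of 4 chemokine-cleaving enzymes tested, palmitate raised Mmp9 by 1.30 ± 0.09 and Mmp14 by 0.17 ± 0.04 (edgeR adjusted p = 1.1e-12 and 7.3e-04). Anpep, an aminopeptidase, fell by 1.37 ± 0.13 (edgeR adjusted p = 3.7e-10).

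Likeness of pattern was described by Pearson's r of log2 CPM over the 16 libraries, which share their conditions and depth. Only tested genes above a minimum average level were searched, and the members were left out of the search. The genes most like Cxcl9 were Cxcl16, a membrane-bound CXC ligand (r = 0.994), the guanylate-binding protein Gbp3 (r = 0.994) and Syt7 (r = 0.992), and those most like Cxcl10 were Ccl2 (r = 0.992), a monocyte attractant, Icosl (r = 0.992) and Casp4 (r = 0.991). Cxcl11 was most like Tnip1 (r = 0.989), Cxcl1 (r = 0.979) and Slc2a6 (r = 0.977). Cxcl16 itself went from 2.69 ± 0.377 CPM in BSA to 57.1 ± 3.09 in palmitate and 58.0 ± 3.17 with both agents (SD, n = 4 each).

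Cxcl12 was most like Pdpn (r = 0.959), the stromal podoplanin gene, Glipr2 (r = 0.951) and Trim8 (r = 0.950). Pdpn was at 79.8 ± 3.86 CPM in BSA, 77.8 ± 2.97 in IL-1β, 119.2 ± 1.98 in palmitate and 97.1 ± 1.15 with both agents (SD, n = 4 each). The genes most like Ackr3 were Abat (r = 0.877), Gpx8 (r = 0.877) and Echs1 (r = 0.876). Among the members, r was 0.949 between Cxcl9 and Cxcl10, 0.975 between Cxcl10 and Cxcl11 and 0.778 between Cxcl9 and Cxcl12.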

How the data were processed

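Bulk RNA of mGF was measured in 16 libraries, 4 per condition, grouped by their labels. The deposited values are raw counts per gene. The authors trimmed reads with Trimmomatic 0.39, aligned them to GRCm39 (GENCODE annotation) with STAR 2.7.10a and counted them with HTSeq 2.0.9, neither filtered nor normalized. The paper describes oligo(dT)-primed cDNA and the labels a stranded total RNA kit, which would differ in the RNAs captured. Rows that name no gene held 18.3% to 21.4% of each library and stayed out of library sizes and tests.

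From these counts, edgeR 4.0.16 (R 4.3.3, glmQLFit and glmQLFTest with TMM scaling) was fitted to all 16 libraries with 1 mean per condition, after filterByExpr (minimum count 10, minimum total 15). A gene was called at a Benjamini-Hochberg adjusted p under 0.05 over all genes tested. Depth limits the precision: 3 counts, the floor, are 0.0331 to 0.146 CPM, and floors and counting intervals cover counting error only. The biological coefficient of variation was 6.08%. The fit was tested on simulated data.

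The members and gene lists were chosen with earlier results of these data known. Named were all members and receptors, the 2 largest rises and falls of each other list that passed with palmitate, and the 3 genes most like each tested member. Some genes that meet these rules or belong to the marker lists are not reported here by name. The genes flanking or overlapping Cxcl9, Cxcl10 and Cxcl11, the ratios between members and the order of libraries within a condition were chosen after values were seen. Likeness used log2 CPM with a prior count of 2, among tested genes above a minimum average log2 CPM, members left out. Exon lengths and positions came from GENCODE on GRCm39, and shared sequence was searched with BLAST+ 2.17.0 over at least 50 bases. The alternatives tried were DESeq2 1.42.0, relative log expression and upper-quartile scaling, other expression filters, no mitochondrial or ribosomal RNA genes, only the 8 libraries compared, and each library left out in turn.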

Additional observations from a re-analysis of the deposited data

Results flagged for a closer look

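In 4 of 23 sets of 4 libraries, each set being 1 member in 1 condition, 1 library stood further from the others than Dixon's 95% critical value allows, and chance alone does this in about 1 in 20 sets. Sets of different members share their libraries. Cxcl9 was at 12.9 CPM in palmitate + IL-1β replicate 16, above the other 3 libraries. Cxcl10 was at 47.3 CPM in palmitate replicate 12, below the others. Cxcl14 was at 0.404 CPM in palmitate replicate 11, from 11 counts, and Ackr3 was at 5.30 CPM in BSA replicate 3, below the others.

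The effect of palmitate on the log2 scale differed with and without IL-1β in 4 members by the edgeR interaction term. Of all genes tested, 1.99% passed this term, 1.83% downward. The difference was -4.01 for Cxcl9, -2.71 for Cxcl10, -6.30 for Cxcl11 and -0.49 for Cxcl12. The values of Cxcl9 and Cxcl11 rest on BSA libraries at or under 3 counts. Both genes entered the test only through the treated conditions, so the count of 4 is a description and is not read against that share.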

How the results depend on the processing

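Over the alternatives, 537 log2 differences of single members kept their direction and side of the threshold, 3 passed it newly, 8 reversed and 0 were lost. The reversals concern differences near 0 that passed no test: Ackr3 between palmitate + IL-1β and IL-1β, at 0.01 on the log2 scale, became -0.019 with upper-quartile scaling, -0.0075 with no expression filter, -0.0037 without mitochondrial and ribosomal RNA genes and -0.0039 with only the 8 libraries compared, and ranged from -0.066 to 0.085 with a library left out, reversing without IL-1β replicate 8 (-0.039) and palmitate + IL-1β replicates 13 (-0.054) and 14 (-0.066). Cxcl9 between palmitate + IL-1β and palmitate became -0.058 without palmitate + IL-1β replicate 16 and otherwise reached up to 0.14 with a library left out. The change in CPM beyond the sum of the single changes, recomputed with each library left out (chosen after seeing the data), ranged from -9.90 to 3.15 for Cxcl10, from -0.698 to 0.694 for Cxcl9 and from -0.292 to -0.0232 for Cxcl11, with the lowest value of each without palmitate + IL-1β replicate 16. With only the 8 libraries compared, IL-1β called 2 members against BSA (1 higher, 1 lower), because Cxcl9 and Cxcl11 no longer passed the expression filter. DESeq2 gave no adjusted p for Cxcl11 in IL-1β against BSA, in palmitate + IL-1β against palmitate or in the interaction, and a filter of 1 CPM in 4 libraries removed Cxcl11. Upper-quartile scaling split all genes called with palmitate into 2402 higher and 4064 lower, against 3228 and 2855, with no change in the members' calls. Cxcl14 entered the fit with no filter and without some libraries and was called in none of these. No paired analysis was possible because the replicate numbers run through all 16 libraries and none is shared between conditions. Depth limits Cxcl9 and Cxcl11 in BSA and Cxcl14 everywhere.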
